A study of Caenorhabditis elegans with 12 samples.

Results

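The nuclear hormone receptor genes of Caenorhabditis elegans were taken as every gene whose symbol in the array's probe annotation begins with nhr-, which gave 254 of the 17118 genes with a probe set of their own. Where a gene had several such probe sets, the one with the highest mean signal on the 12 Affymetrix arrays was used, and all values are log2 signals. The annotation put an nhr- symbol on 307 probe sets, of which 293 named 1 gene and 14 named several genes and were set aside. By gene identifier all 254 members were found under the same symbol in the RefSeq annotation of WBcel235, which lists 283 nhr- symbols and calls 11 of the members pseudogenes. The other 29 symbols of that annotation were not analysed here. No rule on signal strength removed a member.

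The arrays compared 4 groups of 3 samples: GFP+ and GFP- cells of mir-124 mutant embryos, and GFP+ and GFP- cells of wild-type embryos. The label names the mutant strain mir-124, and which allele it carries was not stated there. The GFP was driven by the mir-124 promoter, from a transgene first injected with a lin-15 rescue plasmid into lin-15(n765) worms, integrated with X-rays and then outcrossed into N2. GFP+ therefore means promoter activity, in whichever cells carry it. Embryos were broken up into cells, cultured for 24 hours and sorted to 500000 cells a sample, and the small yield of RNA was amplified before labelling. The comparisons ask which transcripts mark the cells in which the mir-124 promoter is on, and which differ when the microRNA is lost. In such pooled samples, fewer cells of a type and less RNA per cell cannot be told apart. The triplicates are called biological by the submitters, and every p-value measures how far these samples scatter.

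Nuclear hormone receptors are transcription factors with a zinc finger domain that binds DNA and a second domain that can bind a small lipophilic ligand such as a steroid or fatty acid. Nematodes carry an unusually large set of them, most related to the vertebrate receptor HNF4 and most without a known ligand, while a small number have clear counterparts in flies and mammals. The studied members act in moulting, epidermal development, fat metabolism and neuron identity. Members of so large a family can resemble each other in sequence, and 27 of the 254 were read from probe sets of a kind that can bind related transcripts (names ending in _s_at or _x_at).

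In the receptor genes, as in others, wild-type replicate 3 of the GFP- label looked like GFP+ cells. Over the 254 members it correlated at 0.977 with wild-type GFP+ replicate 3, and at 0.84 and 0.833 with wild-type GFP- replicates 1 and 2, where arrays of 1 group among the other 10 correlated at 0.961 to 0.991. Each result is therefore given for all 12 arrays and for 10 arrays, without both wild-type replicate 3 samples, which leaves 2 wild-type samples a group. Averaged over 15 markers of ciliated sensory neurons, the signal spanned 7.81 to 8.17 among mutant GFP+ arrays and 4.68 to 4.76 among mutant GFP- arrays. Wild-type GFP+ arrays spanned 7.60 to 8.24, and wild-type GFP- arrays 4.63 to 4.72 apart from the doubted library at 8.40. Averages of 9 body wall muscle markers spanned 7.10 to 7.64 among mutant GFP+ arrays and 9.88 to 10.75 among mutant GFP- arrays. Markers of cell types thus moved with the fraction, and their part in the results on single receptors was not tested.

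In the mutant, receptor genes that were higher in GFP+ than in GFP- cells outnumbered those that were lower. With 12 arrays, 36 of the 254 members (14.2%) were higher and 5 (1.97%) lower, each with an adjusted p under 0.05 in limma. Among all 17118 genes the shares were 6.36% higher and 6.60% lower, 13% in all. With 10 arrays, 73 members (28.7%) were higher and 21 (8.27%) lower, against 14.3% and 14.6% of all genes. The median log2 difference was 0.121 over the members and 0.00885 over all genes, and 159 members were above 0 and 95 below. The highest GFP- sample lay below the lowest GFP+ sample for 97 members (38.2%, against 21% of all genes), and the reverse held for 36 members (14.2%, against 21.3%).

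The 12-array count of 41 members depended on single arrays. It was 0 without mutant GFP+ replicate 1, mutant GFP+ replicate 2 or mutant GFP- replicate 3. It was 1 without mutant GFP- replicate 1, 3 without mutant GFP+ replicate 3 and 22 without mutant GFP- replicate 2. It was 77 without the doubted wild-type GFP- library, and 71 with the replicate number as a block within each strain (60 higher and 11 lower, against 11.2% and 10.4% of all genes), which included 37 of the 41. Same-numbered samples deviated together within each strain, so this block's limma adjusted p, called the blocked p below, is given beside a printed fraction difference wherever it changes the call. In the 10-array fit, leaving out any further array kept the count between 78 and 97. The shares of all genes with 1 array left out were not counted, so whether receptors lost calls more than other genes was not tested.

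nhr-214, on chromosome X, had the largest difference between GFP+ and GFP- cells of the mutant. Its log2 signal was 8.50, 9.22 and 9.12 in mutant GFP+ cells and 4.95, 5.26 and 4.88 in mutant GFP- cells. The wild-type samples had 8.43, 8.92 and 8.59 in GFP+ cells and 4.59, 5.06 and 9.47 in GFP- cells. Every GFP+ sample was above every GFP- sample, except that the doubted wild-type GFP- library was the highest of the 12. The difference in the mutant was 3.92 ± 0.99 (SE, n = 3 a group), a 15.1-fold higher signal in GFP+ cells. The adjusted p in limma was 0.0317 over 12 arrays and 4.56e-06 over 10. Here and below, the SE and p-value rest on 1 spread shared by the 4 groups. Over 12 arrays that spread includes the doubted wild-type library, so it is not the scatter of the mutant samples alone.

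nhr-51, on chromosome V, gave 8.77, 8.47 and 8.63 in mutant GFP+ cells and 4.80, 4.50 and 4.93 in mutant GFP- cells. Its wild-type values were 8.21, 8.28 and 8.97 in GFP+ cells and 4.68, 4.92 and 9.33 in GFP- cells. The mutant samples fell into narrow, separate ranges, and in wild-type only the third GFP- library left its range. The mutant difference was 3.88 ± 0.96 (SE; limma adjusted p = 0.0301), and 3.88 ± 0.14 in the 10-array fit (adjusted p = 4.97e-07).

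nhr-124, also on chromosome V, read 7.90, 8.07 and 8.29 in mutant GFP+ cells and 4.70, 4.93 and 4.14 in mutant GFP- cells. In wild-type its values were 8.49, 7.84 and 8.15 in GFP+ cells and 5.12, 5.03 and 8.71 in GFP- cells. GFP+ and GFP- samples did not overlap in the mutant, nor in wild-type replicates 1 and 2. nhr-167, on chromosome X, stood at 6.84, 6.77 and 7.28 in mutant GFP+ cells and at 3.63, 3.70 and 3.50 in mutant GFP- cells. Its wild-type signal was 6.77, 7.02 and 7.75 in GFP+ cells and 3.76, 3.69 and 7.66 in GFP- cells. The same separation held, again with the last wild-type GFP- value in the GFP+ range. In the mutant, nhr-124 rose by 3.50 ± 0.79 (limma adjusted p = 0.0231) and nhr-167 by 3.35 ± 0.85 (adjusted p = 0.0321).

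nhr-178 had 7.85, 8.10 and 8.03 in mutant GFP+ cells and 5.03, 5.67 and 5.27 in mutant GFP- cells, and rose by 2.68 ± 0.52 (limma adjusted p = 0.0163). nhr-120 had 6.65, 7.08 and 6.63 against 4.27, 4.37 and 4.59 in the same groups, and rose by 2.38 ± 0.49 (adjusted p = 0.0184). Both were without overlap. nhr-215, annotated as a pseudogene, had 7.80, 8.10 and 8.18 in mutant GFP+ cells and 4.18, 6.58 and 6.12 in mutant GFP- cells. Its first GFP- sample lay well below the other GFP- samples, and the difference was 2.40 ± 0.54 (adjusted p = 0.0234). nhr-187 rose by 2.35, nhr-110 by 2.29 and nhr-59 by 2.16. nhr-110 and nhr-59 were read from probe sets that can bind related transcripts, and the second probe set of nhr-110 gave 0.68 (adjusted p = 0.0593).

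The other 26 members that rose in the mutant over 12 arrays did so by 0.59 (nhr-199) to 1.95 (nhr-207 and nhr-230). They include nhr-272, nhr-21 and nhr-26 between 1.77 and 1.91, nhr-47 at 1.46 and nhr-45 at 0.77. nhr-47, with 9.13, 9.30 and 9.04 in mutant GFP+ cells and 7.92, 7.73 and 7.45 in mutant GFP- cells, had the lowest adjusted p of all members in this fit (0.012). Its probe set can bind related transcripts, as do those of nhr-3, nhr-6, nhr-21, nhr-23, nhr-31, nhr-53, nhr-60, nhr-79, nhr-80 and nhr-86, and a second, dimmer one of the same kind for nhr-47 gave 0.15 (adjusted p = 0.631, and 0.567 over 10 arrays). nhr-230 had a blocked p of 0.0754, and its second, dimmer probe set gave 0.14 (adjusted p = 0.597). For a second probe set per gene the picture was partly different: of 33 members with several single-gene probe sets, 2 had all of them called in the same direction, 7 had some of them called, 24 had none and 0 had opposite calls. With 10 arrays these numbers were 10, 10, 13 and 0.

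**Figure D1:**
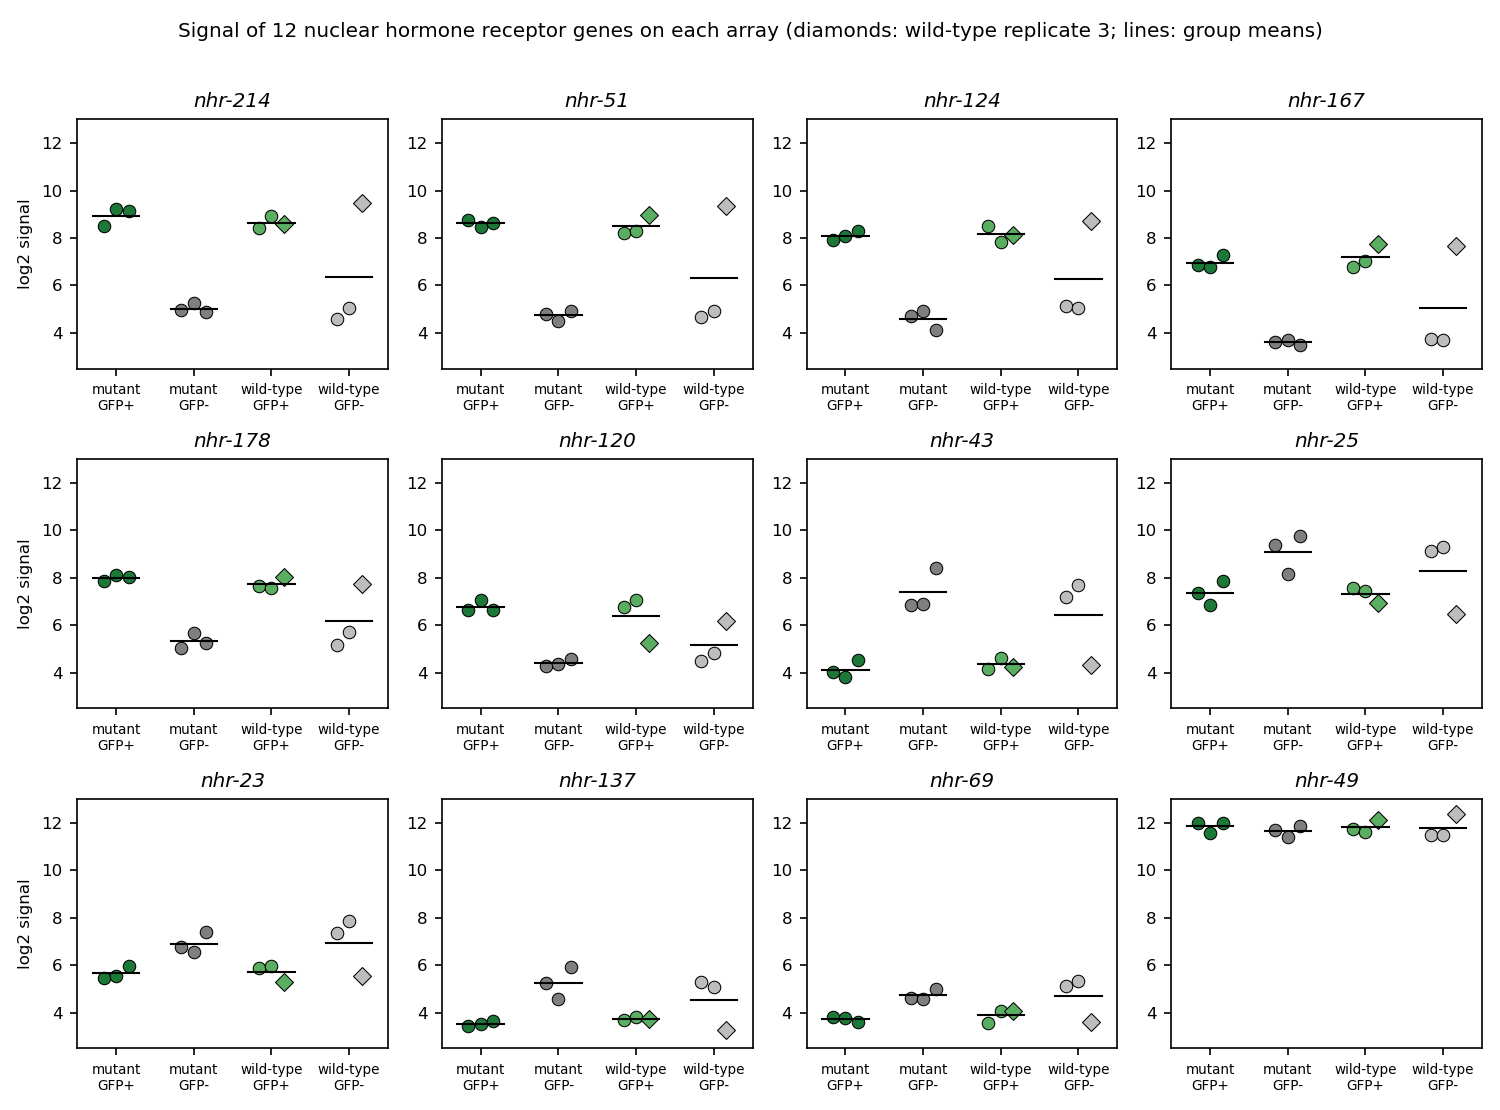
Log2 signal of 12 nuclear hormone receptor genes (vertical axis) on each array, by group (horizontal axis); circles are single samples, diamonds are the wild-type replicate 3 samples and lines are group means over 3 samples. nhr-214, nhr-51, nhr-124 and nhr-167 lie between 6.77 and 9.22 in mutant GFP+ cells and between 3.50 and 5.26 in mutant GFP- cells, nhr-43 and nhr-25 run the other way, and nhr-49 is at 11.41 to 12.38 in all groups.

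Few members were lower in GFP+ cells, and nhr-43, on chromosome IV, was lower by more than any other. It had 4.02, 3.83 and 4.54 in mutant GFP+ cells and 6.87, 6.91 and 8.43 in mutant GFP- cells. The wild-type samples had 4.16, 4.64 and 4.25 in GFP+ cells and 7.20, 7.70 and 4.35 in GFP- cells. No GFP+ sample reached a GFP- sample, apart from the doubted library, which sat in the GFP+ range. nhr-43 fell by 3.27 ± 0.75 in the mutant, which is 9.67-fold (limma adjusted p = 0.0238, and 0.000332 over 10 arrays).

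nhr-137, on chromosome X, had 3.45, 3.51 and 3.65 in mutant GFP+ cells and 5.23, 4.58 and 5.95 in mutant GFP- cells, and fell by 1.72 ± 0.49 (limma adjusted p = 0.0456). The remaining falls over 12 arrays were of nhr-53 by 1.00, nhr-64 by 0.86 and nhr-8 by 0.82. nhr-8 is a relative of the steroid receptor gene daf-12 with roles in defence against toxins and in cholesterol balance. Its values were 4.71, 4.85 and 4.82 in mutant GFP+ cells and 5.32, 5.78 and 5.73 in mutant GFP- cells, and the groups did not overlap. With 10 arrays 16 more members were lower. The largest of these falls were of nhr-25 by 1.74, nhr-23 by 1.24, nhr-11 by 1.13 and nhr-69 by 1.00. Averages of 7 intestine markers spanned 4.95 to 5.09 among mutant GFP+ arrays and 6.81 to 7.62 among mutant GFP- arrays, with 5 of 7 called lower over 12 arrays. The mean of 7 hypodermis markers was 5.95 to 6.26 against 6.88 to 8.11 in the same groups, with 3 of 7 called lower. Markers of body wall muscle (6 of 9), germline (2 of 4) and coelomocytes (2 of 2) were also called lower over 12 arrays, and 0 of 5 of the pharynx were. Over 10 arrays 9 of 9 body wall muscle markers and 3 of 5 pharynx markers were called lower, and the other counts were the same. The part of any of these tissues in the falls was not tested.

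In wild-type cells no member passed the threshold over 12 arrays, where limma called 0.00584% of all genes and 33 members (13%, against 12.8% of all genes) had an unadjusted p under 0.05. The lowest adjusted p was 0.248, for nhr-47 and nhr-88. Without both replicate 3 samples, 50 members (19.7%) were higher in GFP+ than in GFP- cells and 11 (4.33%) lower, against 8.78% and 8.07% of all genes, and 95 members (37.4%, against 28.7%) had an unadjusted p under 0.05. Groups did not overlap for 16 members higher (6.3%, against 5.58% of all genes) and 6 lower (2.36%, against 5.29%) over 3 samples a group, and for 117 higher (46.1%, against 26.9%) and 55 lower (21.7%, against 31.1%) over 2 samples a group. The median difference was 0.136 over the members and -0.0236 over all genes. This wild-type count of 61 rests on 2 samples a group. Leaving out 1 more wild-type sample leaves 1 sample in a group. The wild-type range for the 10-array fit in the last section includes such fits. How stable this wild-type count is therefore cannot be read from that range.

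The largest wild-type differences over 10 arrays were again of nhr-214 (3.85 ± 0.28, limma adjusted p = 4.03e-05), nhr-51 (3.44 ± 0.18), nhr-167 (3.17 ± 0.19) and nhr-124 (3.09 ± 0.28). nhr-120 rose by 2.24, nhr-178 by 2.18, nhr-194 by 2.15, nhr-187 by 1.89, nhr-230 by 1.87 and nhr-59 by 1.78. nhr-194, annotated as a pseudogene, was at 9.26 in wild-type GFP+ replicate 3 and 9.06 in GFP- replicate 3, against 7.22 and 6.59 in the other GFP+ samples and 4.94 and 4.56 in the other GFP- samples. Its 2 replicate 3 values were the highest of the 12 arrays. In the mutant, nhr-194 had 7.42, 6.94 and 7.86 in GFP+ cells and 5.61, 5.47 and 5.82 in GFP- cells. The falls in wild-type were led by nhr-43 (-3.05 ± 0.49, adjusted p = 0.0028), nhr-25 (-1.71 ± 0.48, adjusted p = 0.0385) and nhr-23 (-1.69 ± 0.30, adjusted p = 0.00442). After them came nhr-137 at -1.45, nhr-69 at -1.40, nhr-11 at -1.24, nhr-263 at -1.01, nhr-101 at -0.99, nhr-172 at -0.89 and nhr-53 at -0.86.

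The mutant and the wild-type difference use no sample in common. Their SEs and p-values rest on 1 spread shared by the 4 groups, so the calls in the strains are not independent. Of the 36 members that rose in the mutant over 12 arrays, 29 were also called higher in the 10-array wild-type comparison, which is 80.6% of the mutant rises and 58% of the 50 wild-type rises. All 36 had a positive wild-type difference, from 0.27 to 3.85 with a median of 1.24, beside a median of 1.49 in the mutant. Of the 5 falls, 4 were shared (80% of the mutant falls and 36.4% of the 11 wild-type falls) and all 5 had a negative wild-type difference. Within the 10-array fit, 49 rises were shared (67.1% of 73 in the mutant and 98% of 50 in wild-type), and 11 falls (52.4% of 21 and 100% of 11). No member was called in opposite directions, and of the 95 members called in either strain nhr-55 was the 1 called in wild-type alone. The overlap over all genes was not counted, so whether receptors were shared between strains more than other genes was not tested. A call in 1 strain alone does not show a difference between strains, and the test of that difference is given further on.

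**Figure D2:**
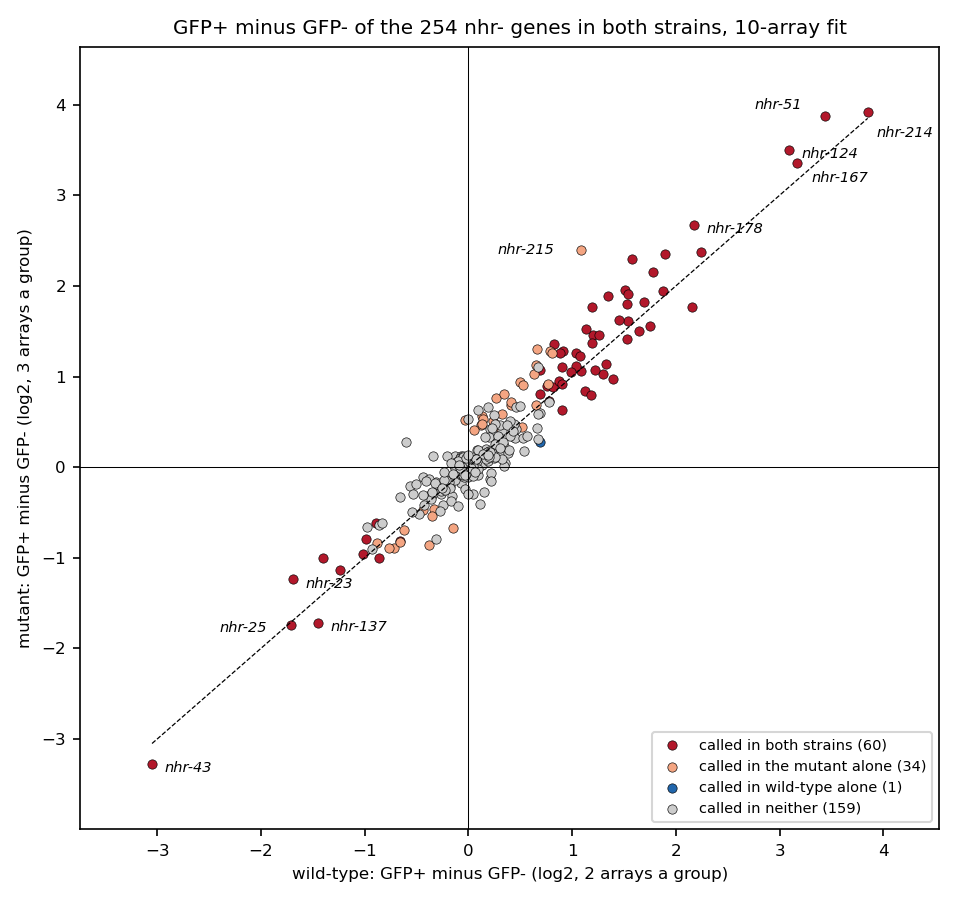
GFP+ minus GFP- log2 difference of each of the 254 nhr- genes in the mutant (vertical axis, 3 samples a group) and in wild-type (horizontal axis, 2 samples a group) from the 10-array fit; colours show the calls at an adjusted p under 0.05 and the dashed line marks equal differences. The 60 genes called in both strains lie along that line, from nhr-43 at -3.27 and -3.05 to nhr-214 at 3.92 and 3.85, while nhr-215 has 2.40 in the mutant and 1.09 in wild-type.

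The 60 members called in both strains also show on which side the wild-type replicate 3 samples lie, since those samples had no part in the calls. The library labelled wild-type GFP- replicate 3 was nearer to the mean of the other wild-type GFP+ samples than to that of the other GFP- samples for 57 of the 60, and wild-type GFP+ replicate 3 for 49. Departures of GFP+ replicate 3 include nhr-120, at 5.27 against 6.78 and 7.07 in the other wild-type GFP+ samples, and nhr-1, at 7.68 against 9.40 and 9.37.

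**Figure D3:**
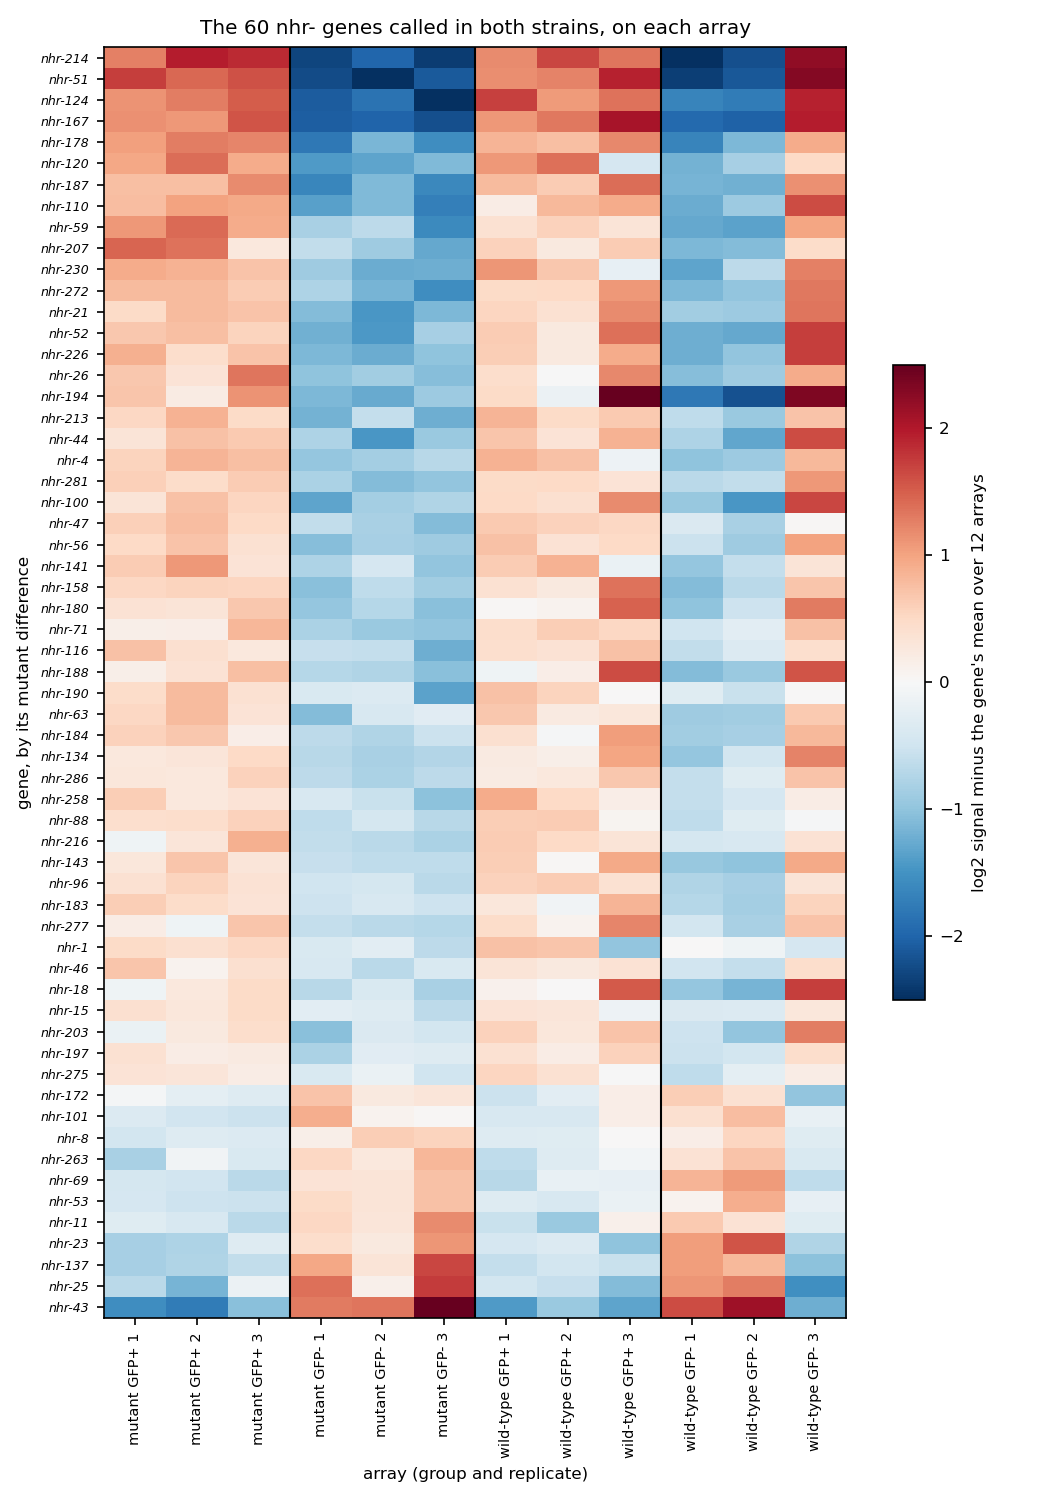
Log2 signal minus the gene's mean over 12 arrays (colour, red above and blue below the mean, saturated beyond 2.5) for the 60 nhr- genes called in both strains (rows, by their mutant difference) on each array (columns, by group and replicate). The 49 upper genes are mostly red in mutant GFP+ cells and blue in mutant GFP- cells and the 11 lower genes mostly the reverse; the last column, wild-type GFP- replicate 3, resembles the GFP+ columns.

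Of 10 receptors with a clear counterpart in other animals, 0 rose and 1 fell (nhr-8) in the mutant over 12 arrays, where the shares of all genes were 6.36% and 6.60%. Over 10 arrays 0 rose and 3 fell in the mutant, against 14.3% and 14.6% of all genes, and 0 rose and 3 fell in wild-type, against 8.78% and 8.07%. Over 12 arrays these counts are near those shares. Over 10 arrays the 3 falls are above them in both strains, and in a list of 10 this was not tested. Their median mutant difference was 0.0212, beside 0.00885 over all genes. nhr-25 is the counterpart of FTZ-F1 and SF-1, needed in the epidermis and for moulting. It had 7.35, 6.85 and 7.87 in mutant GFP+ cells and 9.39, 8.15 and 9.77 in mutant GFP- cells. Wild-type samples had 7.55, 7.45 and 6.93 in GFP+ cells and 9.12, 9.31 and 6.48 in GFP- cells. The mutant ranges did not overlap, and the difference was -1.74, with an adjusted p of 0.129 in limma over 12 arrays, a blocked p of 0.0353, and 0.00917 over 10. A second, dimmer probe set of nhr-25 gave -0.38 (adjusted p = 0.354 and 0.0913).

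nhr-23 is the counterpart of the ROR receptors and of fly DHR3 and acts in moulting. Its values were 5.48, 5.54 and 5.98 in mutant GFP+ cells and 6.75, 6.55 and 7.41 in mutant GFP- cells, without overlap. The wild-type values were 5.89, 5.95 and 5.30 in GFP+ cells and 7.36, 7.87 and 5.55 in GFP- cells. nhr-23 had a mutant difference of -1.24 (limma adjusted p = 0.139 over 12 arrays, blocked p 0.0336, and 0.00469 over 10), and its other probe set gave 0.05 (adjusted p = 0.916). On their brighter probe sets nhr-25 and nhr-23 were lower, as were markers of several tissues given above, whose part in this was not tested.

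nhr-6, the worm NR4A receptor, was at 8.01, 8.87 and 9.21 in mutant GFP+ cells and 7.09, 7.26 and 8.42 in mutant GFP- cells. These ranges overlap, and the difference of 1.11 ± 0.38 did not pass the threshold without the block (limma adjusted p = 0.0882, and 0.0562 over 10 arrays) but passed with it (blocked p 0.026, and 0.00272 over 10 arrays). The tailless counterpart nhr-67 had a difference of -0.41 (adjusted p = 0.163, and 0.0655 over 10 arrays with a blocked p of 0.0492). nhr-85, related to E75 and Rev-erb, had 0.41. nhr-111 had 0.32, nhr-41, the counterpart of fly DHR78, had 0.06, the GCNF counterpart nhr-91 had 0.05 and the daf-12 relative nhr-48 had -0.01, and none of these 5 was called in the mutant or in wild-type by either fit.

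Of 13 receptors of fat and sterol metabolism on the list, 12 were measured on a probe set of their own, and nhr-62 was not. In the mutant 1 rose (nhr-66) and 2 fell (nhr-8 and nhr-64) over 12 arrays, and 3 rose and 4 fell over 10, around a median of -0.0284. In wild-type 0 rose and 2 fell over 10 arrays. Among all genes 6.36% rose and 6.60% fell in the mutant over 12 arrays, and 14.3% and 14.6% over 10. In wild-type over 10 arrays 8.78% rose and 8.07% fell. The 1 mutant rise over 12 arrays is near its share. The 2 falls over 12 arrays, the 3 rises and 4 falls over 10, and the 2 wild-type falls are above theirs. In a list of 12 this was not tested. nhr-66, a partner of nhr-49 in lipid metabolism, had 10.06, 9.86 and 10.14 in mutant GFP+ cells and 8.93, 9.0 and 9.30 in mutant GFP- cells. Its ranges were apart by more than their own width, and it rose by 0.94 ± 0.24 (limma adjusted p = 0.0343). In wild-type the difference was 0.50 ± 0.16 over 10 arrays and did not pass (adjusted p = 0.0675, blocked p 0.0361). A second, dimmer probe set of nhr-66 rose by 0.74 in the mutant (adjusted p = 0.0223) and by 0.72 in wild-type over 10 arrays (adjusted p = 0.0184).

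nhr-69, which acts with DAF-8 on the insulin-like gene daf-28 in the ASI sensory neurons, was lower in the GFP+ cells. It had 3.82, 3.79 and 3.59 in mutant GFP+ cells and 4.61, 4.60 and 4.99 in mutant GFP- cells, and 3.57, 4.08 and 4.07 in wild-type GFP+ cells and 5.12, 5.33 and 3.62 in wild-type GFP- cells. Over 10 arrays it fell by 1.00 ± 0.17 in the mutant (limma adjusted p = 0.0023) and by 1.40 ± 0.21 in wild-type (adjusted p = 0.00192). Over 12 arrays its mutant difference had an adjusted p of 0.113. nhr-80, which controls fatty acid desaturation, had -0.89 in the mutant (adjusted p = 0.0611 over 12 arrays, blocked p 0.0451, and 0.0247 over 10) and -0.72 in wild-type over 10 arrays (0.158, blocked p 0.0359). nhr-10, of the pathway that switches on the propionate shunt, had 0.52 in the mutant (0.378 over 12 arrays, blocked p 0.0376, and 0.0357 over 10). The second probe set of nhr-10, which can bind related transcripts, rose by 0.54 over 12 arrays (adjusted p = 0.0382, and 0.0199 over 10). nhr-76, of serotonin signalling to fat stores, had 0.44 in the mutant (0.0618 and 0.0315) and 0.51 in wild-type over 10 arrays (0.0569, blocked p 0.0392), and its second probe set gave 0.17 in the mutant (0.388 and 0.232).

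nhr-49, an HNF4-like receptor that drives fatty acid oxidation and desaturation, had a high signal in all 12 samples. It had 12.01, 11.58 and 11.99 in mutant GFP+ cells and 11.69, 11.41 and 11.88 in mutant GFP- cells, and 11.74, 11.61 and 12.13 in wild-type GFP+ cells and 11.50, 11.50 and 12.38 in wild-type GFP- cells. The groups overlapped in both strains, and the mutant difference was 0.20 ± 0.26 (limma adjusted p = 0.712). nhr-13 (0.03), nhr-79 (0.17), nhr-68 of the propionate shunt (-0.30) and nhr-114 (-0.08) were not called either.

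Among 12 other studied receptors, 1 rose (nhr-88) and 0 fell in the mutant over 12 arrays, and 2 rose and 1 fell over 10, with a median of 0.0199, against the same shares of all genes. In wild-type over 10 arrays 2 rose and 0 fell. nhr-88 had 9.88, 9.90 and 10.03 in mutant GFP+ cells and 8.83, 9.03 and 8.76 in mutant GFP- cells, in narrow and separate ranges, and rose by 1.06 ± 0.19 (limma adjusted p = 0.0142). The other 3 single-gene probe sets of nhr-88 were not called, with differences of -0.03, 0.14 and -0.16. nhr-1 had 9.16, 9.07 and 9.19 in mutant GFP+ cells and 8.28, 8.41 and 8.02 in mutant GFP- cells, and its difference of 0.90 passed over 10 arrays (adjusted p = 0.000707) but not over 12 (0.159). Its dimmer probe set gave 0.33 (0.178 over 10 arrays). nhr-28 had -0.46 and passed over 10 arrays alone (0.0178), and its other probe set gave -0.35 (0.208). Not called by either fit without the block in the mutant were nhr-86 (0.67), the hypoxia target nhr-57 (0.64), nhr-14 of iron uptake (0.42), nhr-60 of the seam cells (0.25), nhr-40 of muscle development (-0.21), nhr-35 (-0.29), nhr-38 (-0.30), nhr-31 of the excretory cell (-0.40) and nhr-2 (-0.66). Of these, nhr-86 passed with the block over 12 arrays (blocked p 0.0385), and nhr-86, nhr-57, nhr-14 and nhr-2 over 10 arrays (blocked p 0.00767, 0.0312, 0.0339 and 0.0446). In wild-type over 10 arrays nhr-2 had -0.98 (adjusted p = 0.134, blocked p 0.0318) and nhr-40 had -0.56 (adjusted p = 0.0901, blocked p 0.0271).

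**Figure D4:**
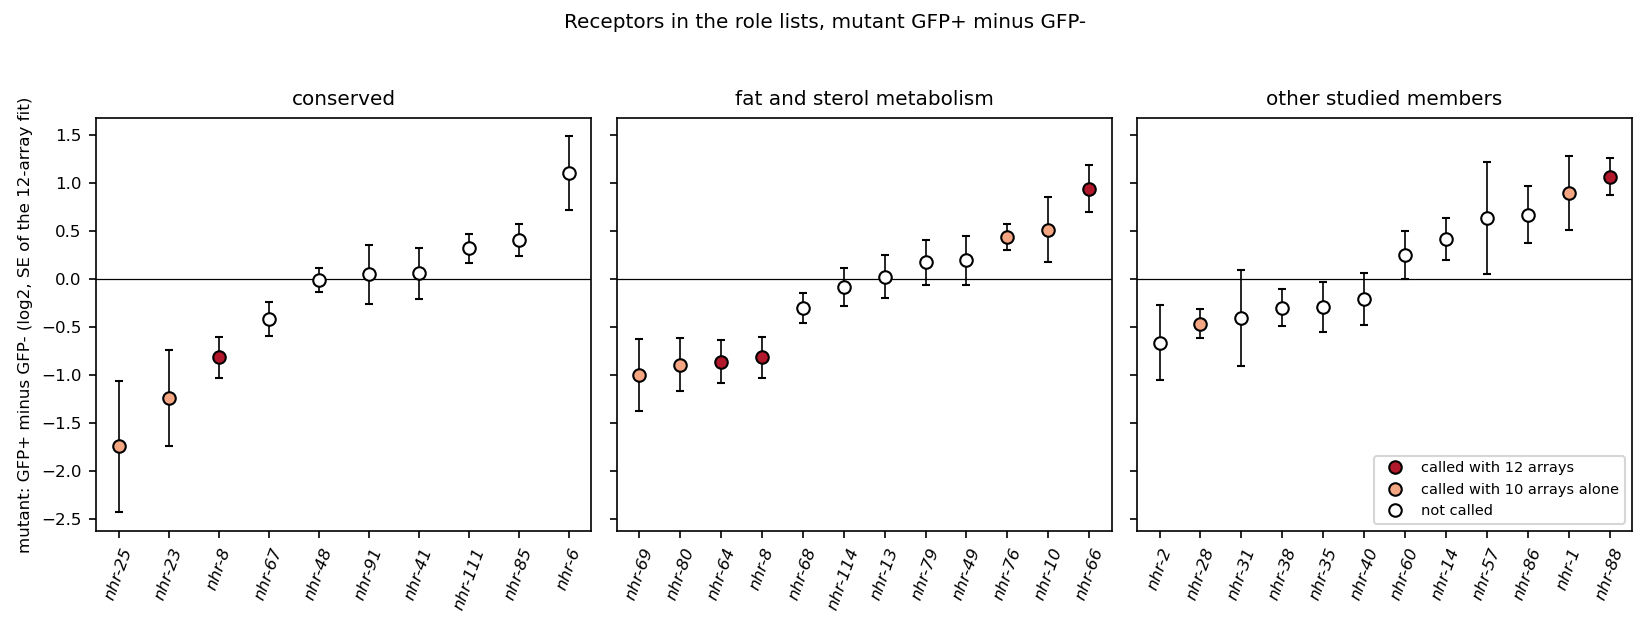
Mutant GFP+ minus GFP- log2 difference (vertical axis) of the receptors on the 3 role lists (panels), by gene (horizontal axis); bars are the SE of the 12-array fit and colours show the call. Most bars cross or lie near 0, with nhr-25 at -1.74 and nhr-23 at -1.24 lowest and nhr-6 at 1.11 and nhr-88 at 1.06 highest. nhr-8 is on 2 lists and is drawn in both panels.

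The 3 lists hold 33 members. Of these, 2 rose (6.06%) and 2 fell (6.06%) in the mutant over 12 arrays, and 5 rose (15.2%) and 7 fell (21.2%) over 10. Among the other 221 members 34 rose (15.4%) and 3 fell (1.36%) over 12 arrays, and 68 rose (30.8%) and 14 fell (6.33%) over 10. The shares of all genes were 6.36% and 6.60% over 12 arrays, and 14.3% and 14.6% over 10. The difference between listed and other members was not tested.

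Of 5 nuclear receptors without an nhr- name, odr-7 rose. odr-7 sets the identity of the AWA olfactory neuron. It had 6.81, 6.88 and 6.84 in mutant GFP+ cells and 4.49, 4.79 and 4.57 in mutant GFP- cells, with no overlap, and rose by 2.22 ± 0.53 (limma adjusted p = 0.0269 over 12 arrays and 9.19e-06 over 10). Its 10-array wild-type difference was 1.72 ± 0.18 (adjusted p = 0.000246). sex-1, which takes part in counting X chromosomes, had -1.56 ± 0.47 in the mutant (adjusted p = 0.0542, blocked p 0.0246, and 0.00803 over 10 arrays), on a probe set that can bind related transcripts. Here and in the cofactor and target lists below, only the brightest single-gene probe set of a gene is given, and sex-1 and daf-12 have 3 each. The steroid receptor daf-12 (0.37), fax-1 of interneurons (0.20) and unc-55 of VD motor neurons (0.15) were not called without the block. With it daf-12 passed over 10 arrays, in the mutant (blocked p 0.0463) and in wild-type (0.49, blocked p 0.0481).

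Of 12 measured cofactors and enzymes around these receptors, 1 rose and 2 fell in the mutant over 12 arrays, and 2 rose and 2 fell over 10. Among all genes 6.36% rose and 6.60% fell over 12 arrays, and 14.3% and 14.6% over 10. strm-1, a sterol methyltransferase that lowers the precursors of dafachronic acid, was at 5.08, 5.15 and 4.98 in mutant GFP+ cells and at 7.05, 6.91 and 6.97 in mutant GFP- cells. It fell by 1.91 ± 0.28 (limma adjusted p = 0.0124). The steroid dehydrogenase gene dhs-16 fell by 0.99 (adjusted p = 0.0388), and ncr-1, a homologue of the sterol transport gene NPC1, rose by 1.29 (adjusted p = 0.0431). emb-8, a reductase for cytochrome P450 enzymes, rose by 1.15 over 10 arrays (adjusted p = 0.000371, and 0.0615 over 12 with a blocked p of 0.0365). The dafachronic acid enzymes daf-9 (0.09) and daf-36 (-0.02), the Mediator subunit mdt-15 (0.37), din-1 (-0.18), cbp-1 (-0.04) and unc-37 (0.15) were not called.

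Of 10 measured genes known as receptor targets, 0 were called in the mutant over 12 arrays, against 6.36% rises and 6.60% falls among all genes. Over 10 arrays 1 rose and 2 fell, against 14.3% and 14.6%. The riser was odr-10, the diacetyl receptor gene that odr-7 controls, at 7.14, 7.98 and 9.26 in mutant GFP+ cells and 4.19, 4.52 and 3.70 in mutant GFP- cells. Its ranges were far apart, with a difference of 3.99 ± 0.45 over 10 arrays (limma adjusted p = 0.000219, and 0.0636 over 12 with a blocked p of 0.0272). The desaturase genes fat-5 and fat-6 fell by 0.59 and 0.60 over 10 arrays (adjusted p = 0.0401 and 0.035). In wild-type over 10 arrays 1 target rose (odr-10, 3.93) and 1 fell (fat-6, -0.76), against 8.78% and 8.07% of all genes. The desaturase gene fat-7 (0.17), acs-2 of fatty acid oxidation (0.06), acdh-1 (-0.58) and the moulting genes mlt-10 (0.01) and nas-37 (0.20) were not called.

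Most members lie on chromosome V, and the members on chromosome X had the largest share of rises. Of 164 members on chromosome V, 22 (13.4%) rose and 1 (0.61%) fell in the mutant over 12 arrays, against 6.35% rises and 5.05% falls among all genes of that chromosome. Of 23 members on X, 9 (39.1%) rose and 1 (4.35%) fell, against 9.86% rises and 8.08% falls among all genes of X. Over 10 arrays the rises were 51 of 164 (31.1%, against 13.3%) on V and 11 of 23 (47.8%, against 22.3%) on X. The median difference was 0.183 on V, 0.423 on X and -0.214 on chromosome I, where 0 of 18 members rose (against 5.1% of its genes) and 1 fell (5.56%, against 7.05%) over 12 arrays and 3 fell (16.7%, against 16.1%) over 10. Over 12 arrays 2 of 13 members rose on chromosome II (15.4%, against 5.64% of its genes), 0 of 8 on III (against 5.37%) and 3 of 28 on IV (10.7%, against 6.19%). The members' counts on I to IV are small, and the difference between chromosomes was not tested.

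A row of neighbours holds 4 of the 9 rises on X. In the gene order of the RefSeq annotation nhr-26, nhr-215, nhr-214 and nhr-272 follow each other on X, and all 4 rose in the mutant over 12 arrays, by 1.77, 2.40, 3.92 and 1.91. nhr-272 had 6.41, 6.42 and 6.25 in mutant GFP+ cells and 4.84, 4.45 and 4.07 in mutant GFP- cells. nhr-26 had 5.18, 4.83 and 5.84 against 3.48, 3.62 and 3.43. None of the 4 had overlapping mutant groups. Their 10-array wild-type differences were 1.19, 1.09, 3.85 and 1.54, and that of nhr-215 did not pass (limma adjusted p = 0.302).

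The 254 members form 73 adjacent pairs, of 107 genes. Over 12 arrays 4 pairs had both genes higher in the mutant, 0 had both lower, 1 had opposite calls, 13 had 1 called and 55 had none. Over 10 arrays 17 pairs had both genes higher in the mutant and 3 in wild-type, and 0 pairs in either strain had both lower. Pairs can share a gene, and of all members 28.7% were higher and 8.27% lower in the mutant over 10 arrays. Whether neighbours were called together more often than other members, or than neighbouring genes of other kinds, was not tested. On chromosome V, rows of 3 called in the mutant over 10 arrays were nhr-158, nhr-159 and nhr-124 (1.37, 1.28 and 3.50), nhr-188, nhr-189 and nhr-187 (1.26, 1.13 and 2.35), and nhr-206, nhr-208 and nhr-207 (0.72, 1.03 and 1.95). Over 12 arrays nhr-158, nhr-188, nhr-189, nhr-206 and nhr-208 passed only with the block (blocked p 0.0197 to 0.039), and in wild-type over 10 arrays nhr-159 and nhr-208 did (0.0264 and 0.0127). In each of these rows the last gene had a larger difference than its neighbours. The pair with opposite calls was nhr-199, which rose by 0.59, and nhr-53, which fell by 1.00.

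**Figure D5:**
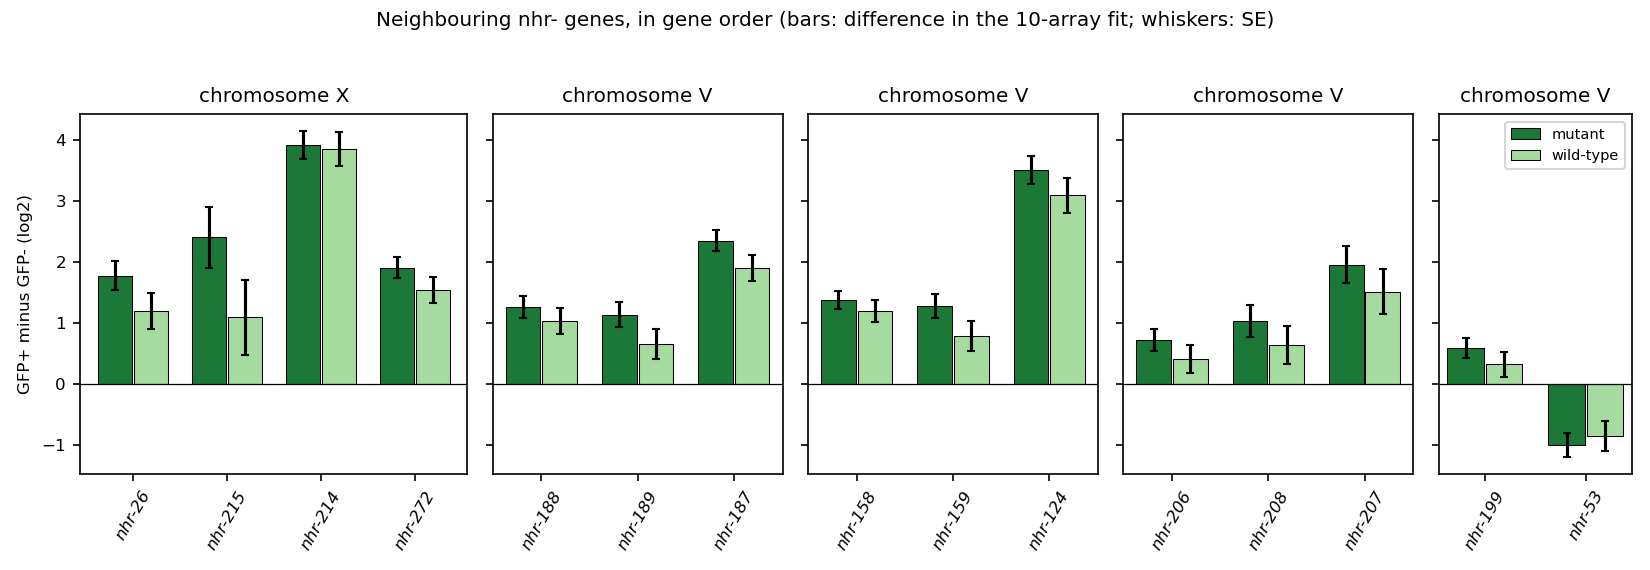
GFP+ minus GFP- log2 difference (vertical axis) of neighbouring nhr- genes in RefSeq gene order (horizontal axis), mutant beside wild-type, from the 10-array fit; bars are differences and whiskers their SE. In the row on X nhr-214 has 3.92 in the mutant and 3.85 in wild-type and its neighbours 1.09 to 2.40, and the last panel shows nhr-199 at 0.59 beside nhr-53 at -1.0 in the mutant.

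More of the brighter members were called. Members whose mean lay above the median of all probe-set means (5.498) numbered 116, and 29 of them (25%) rose in the mutant over 12 arrays, against 10.1% of all genes in that range. Over 10 arrays 55 rose (47.4%, against 21.7%). Of 69 members in the dimmest 25% of probe sets, 1 rose over 12 arrays and 6 over 10, which is 1.45% and 8.7%, against 0.731% and 2.95% of all genes there. Among the 11 pseudogenes, nhr-215 rose in the mutant over 12 arrays, and nhr-194 (1.77) and nhr-144 (0.80) joined it over 10, with blocked p values of 0.0268 and 0.0302 over 12. Of the 14 probe sets that name an nhr- gene together with another gene, 0 were called in the mutant or in wild-type by either fit.

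No receptor gene was called between mutant and wild-type GFP+ cells. With limma 0 of the 254 members were called over 12 arrays and 0 over 10, against 0.0175% and 0.0234% of all genes. An unadjusted p under 0.05 was reached by 1 member (nhr-195, 0.394% against 1.08% of all genes) over 12 arrays and by 5 (1.97%, against 3.16%) over 10. Mutant and wild-type GFP+ samples did not overlap for 4 members higher (1.57%, against 2.85% of all genes) and 11 lower (4.33%, against 3.91%) over 12 arrays, and for 26 higher (10.2%, against 11.4%) and 28 lower (11%, against 8.13%) over 10. The median difference was -0.0332 over the members and -0.025 over all genes with 12 arrays, and 0.00572 and 0.0138 with 10. The largest differences over 10 arrays were of nhr-247 (-1.02 ± 0.80), nhr-10 (0.68 ± 0.17) and nhr-59 (0.67 ± 0.27), each with an adjusted p of 1. nhr-247 had 4.68, 4.11 and 4.72 in mutant GFP+ cells and 6.68, 4.38 and 4.49 in wild-type GFP+ cells, with the first wild-type sample far above the rest. nhr-10 had 9.19, 8.97 and 9.39 in mutant GFP+ cells and 8.52, 8.50 and 9.68 in wild-type GFP+ cells, and its groups were apart without wild-type replicate 3 but overlapped with it. Its difference was 0.29 over 12 arrays and between 0.0858 and 0.675 in the settings tried, and its second probe set gave 0.19 over 10 arrays.

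In GFP- cells 0 members were called between the strains in either fit, against 0.0234% of all genes over 12 arrays and 0.0175% over 10, and an unadjusted p under 0.05 was reached by 11 members (4.33%, against 5.06% of all genes) over 12 arrays and 12 (4.72%, against 5.51%) over 10. Mutant and wild-type GFP- samples did not overlap for 2 members higher (0.787%, against 4.03% of all genes) and 20 lower (7.87%, against 4.07%) over 12 arrays, and for 14 higher (5.51%, against 8.99%) and 31 lower (12.2%, against 8.78%) over 10. Over 12 arrays the median difference was -0.125 over the members and -0.0121 over all genes, and the sign was negative for 174 of the 254 members (68.5%, against 52.1% of all genes), although no member passed the test. Without both replicate 3 samples the median was -0.0435, beside -0.0101 over all genes, and 148 members had a negative sign (58.3%, against 52.2%). The largest 10-array differences were of nhr-215 (-0.99 ± 0.56), nhr-194 (0.89 ± 0.28) and nhr-23 (-0.71 ± 0.27), each with a limma adjusted p of 0.878.

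The difference of the GFP+ against GFP- difference between mutant and wild-type was called for 0 members over 12 arrays and for 0 over 10, as for 0% of all genes. An unadjusted p under 0.05 was reached by 4 members (1.57%, against 1.51% of all genes) over 12 arrays and 5 (1.97%, against 1.24%) over 10. Over 10 arrays nhr-215 had the largest value, 1.31 ± 0.79, followed by nhr-238 at 0.88 ± 0.76 and nhr-110 at 0.72 ± 0.32, each with a limma adjusted p of 1. For the strongest receptors it was 0.07 ± 0.36 (nhr-214), 0.44 ± 0.23 (nhr-51), 0.41 ± 0.37 (nhr-124), 0.18 ± 0.24 (nhr-167) and -0.23 ± 0.63 (nhr-43). These values are small beside fraction differences of 3.09 to 3.92 and -3.27 to -3.05, but a p above the threshold does not show equality.

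The 10 members with the highest mean signal were nhr-49, nhr-3, nhr-45, nhr-237, nhr-46, nhr-66, nhr-88, nhr-67, nhr-243 and nhr-40, although signals of different probe sets do not rank transcripts. nhr-45, nhr-66 and nhr-88 were higher in mutant GFP+ cells over 12 arrays, and nhr-3 and nhr-46 over 10 arrays as well, with blocked p values of 0.0283 and 0.0302 over 12. nhr-45 had 11.06, 10.76 and 10.95 in mutant GFP+ cells and 10.19, 10.04 and 10.25 in mutant GFP- cells, with no overlap, and rose by 0.77 ± 0.18 (limma adjusted p = 0.0246). In wild-type its 10-array difference was 0.27 ± 0.15 (adjusted p = 0.298), its second probe set gave 0.71 in the mutant (adjusted p = 0.407, and 0.0325 over 10 arrays) and 0.73 in wild-type over 10 arrays (0.0897), and the difference between the strains was 0.50 ± 0.19 (adjusted p of 1). nhr-237 (-0.25) and nhr-243 (0.27) were not called in either strain by either fit.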

How the data were processed

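Sorted embryonic cells of 4 groups were measured on 12 arrays. The deposited values are log2 summaries, 1 per probe set and array; per the submitters' processing notes RMA, MAS5, affy and limma were used, without versions or roles, and which of them made the table is not settled here. Array medians lay between 5.391 and 5.509, and no scaling was added, so a shift common to all transcripts could not be seen. Of 22625 probe sets 77 controls were left out and 22548 tested, of which 20766 name 1 gene, 887 several and 895 none.

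Contrasts were tested with limma (version 3.58.1, run in R 4.3.3) by lmFit on 1 mean per group, followed by eBayes, 2-sided, with Benjamini-Hochberg adjustment over all tested probe sets and a threshold of 0.05. Changes called higher or lower passed it. Figures used matplotlib 3.10.9. RefSeq (WBcel235) gave names, chromosomes and gene order only. The members and lists were chosen with earlier results of these data known. Named were, per comparison and fit, the 10 largest called rises and falls or, with none, the 3 largest differences; the 10 highest means; the 5 widest ranges of group means (nhr-214, nhr-51, nhr-124, nhr-167 and nhr-43); and the role lists. Genes of neighbour rows, nhr-47, nhr-55, nhr-144, nhr-195, nhr-199 and the other members named only in counts were chosen after their values were seen. The list genes daf-21 and gpd-1 had no single-gene probe set. Planned groupings by protein sequence were not analysed here.

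Same-numbered arrays deviated together from their group means in the mutant (correlations over probe sets of 0.36, 0.435 and 0.359), in wild-type (0.485, 0.41 and 0.418) and between GFP+ groups (0.278, 0.185 and 0.229), but not between GFP- groups (0.232, -0.0696 and -0.0294). The first 3 therefore count as paired. The SEs and p-values given are from fits without the block, and those with it are printed where they change a call or move a count by over 1.5 times. Alternatives were other array sets, normalizations, weights, filters, probe-set choices and leaving out each array. The number of arrays limits the precision.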

Additional observations from a re-analysis of the deposited data

How the results depend on the processing

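The number of receptor genes called between GFP+ and GFP- cells depended on the wild-type replicate 3 pair. In the mutant it was 41 over 12 arrays, 94 over 10, 77 without the library labelled wild-type GFP- replicate 3, 83 with the compared groups alone, 106 with array weights and 71 with the replicate block within strain. With the plain replicate block it was 47. In wild-type it was 0 over 12 arrays, 61 over 10, 55 over 11 and 86 with array weights. Leaving out 1 of 12 arrays gave 0 to 77 in the mutant and 0 to 55 in wild-type, where 2 were called without GFP+ replicate 3. From the 10-array fit the ranges were 78 to 97 and 33 to 74, and the block within strain gave 119 in the mutant and 79 in wild-type. With that block over 10 arrays, 91 of the 254 members rose and 28 fell in the mutant, against 17.6% and 19.4% of all genes. In wild-type 61 rose and 18 fell, against 12% and 12.7%. The counts of 77, 83, 106, 47, 55 and 86 and those with 1 array left out have no such share beside them. Whether receptors gained calls more than other genes did was not tested. The wild-type range with 1 more array left out of the 10-array fit includes fits with 1 sample in a wild-type group. No conclusion is drawn from that range. The fits of 10 arrays with a block or with the compared groups alone were chosen after seeing the data. Between the strains and for the interaction 0 members were called in every setting run. Quantile normalization, a median shift, trended and robust eBayes, leaving out the dimmest 25%, the lowest-mean probe set and leaving out probe sets that can bind related transcripts gave 35 to 44 in the mutant. The members' mutant median was 0.322 without the dimmest 25% and near its value in the other settings. Of the values of named genes under alternatives, 981 kept their direction and call, 89 lost it, 118 gained it and 15 changed sign. With 1 of the 12 arrays left out, the differences between strains in GFP- cells ran from -1.36 to 0.89 for nhr-194 and from -0.71 to 0.45 for nhr-23. That between strains in GFP+ cells ran from -1.08 to 0.071 for nhr-247, and that between wild-type fractions from -0.71 to 0.095 for nhr-172. nhr-194 also had 0.89 over 10 arrays and 0.69 with array weights. With the lowest-mean probe set the sign changed for nhr-23 (0.049 in the mutant, 0.11 in wild-type and 0.047 between strains in GFP- cells), nhr-230 (-0.023 in wild-type) and nhr-25 (0.026 in wild-type). The blocked fits changed no call between the strains. The cause of these changes was not tested. Of the 69 members in the dimmest 25%, 6 were called higher and 3 lower in the mutant over 10 arrays, and how small a difference these arrays could detect was not tested.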
